A study of Mus musculus with 28 samples.

Results

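Small leucine-rich proteoglycans are secreted proteins of the extracellular matrix that share a core of leucine-rich repeats. The best known members bind the surface of collagen fibrils and limit how far the fibrils thicken, and several also hold TGF-β or signal through receptors of the cell surface. They carry chondroitin or dermatan sulfate chains (decorin, biglycan), keratan sulfate chains (lumican, fibromodulin, osteoadherin) or sulfated tyrosines, and fibroblasts are a well-known source of several of them. The 9 genes described here were chosen by symbol: *Dcn*, *Bgn* and *Aspn* of class I, *Lum*, *Fmod*, *Prelp* and *Omd* of class II, *Ogn* of class III, and *Podn*, which encodes podocan. Each symbol had 1 row among the 56980 genes of the bulk count table, and all 9 were among the 12673 genes with a mean normalized count of at least 100, the set that was tested.

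The vessels came from male and female C57BL/6 mice, all of which had subtotal nephrectomy before the end of the jugular vein was joined to the side of the carotid artery to make an arteriovenous fistula (AVF). Bulk RNA sequencing covered 7 contralateral jugular veins, which had no fistula but came from mice with the same nephrectomy, and the outflow veins of 8 early (about day 3), 5 mid (about day 10) and 5 late (about day 21) AVFs, with 1 vessel per library. Single-cell RNA sequencing covered a contralateral, an early AVF and a late AVF library, each made from pooled vessels of both sexes, and the days of these pools were not those of the bulk groups. Library totals ran from 20254173 to 67457501 counts, and early libraries 5 and 6 were the deepest. The contralateral libraries were the least alike, with a median Spearman correlation to their own group of 0.587 to 0.741, against 0.801 to 0.964 in the AVF groups. They also had counts in fewer genes, 11958 to 18283, against 17514 and 19074 in early 6 and 5 and 21522 to 26771 in the other AVFs, and the part of this in the differences from contralateral veins was not tested. In 8 of the 25 bulk libraries (early 5 and 10, mid 12 and 14, and late 17, 19, 23 and 24) the counts of the X-inactivation transcript *Xist* and the Y-linked *Ddx3y* went against the sex label. They were 1 of each labelled sex in the early and mid groups and 2 of each in the late group, so each group had the same number of males and females by label and by counts, and whether any other label of these 8 is wrong was not tested. Calls are therefore also given for the 17 other libraries, of which only 1 is late, a choice made after the data were seen.

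The early AVFs had the lowest levels of most of the family. *Dcn*, *Lum*, *Ogn*, *Omd* and *Podn* fell relative to contralateral veins, from 3.55-fold lower for *Lum* to 24.6-fold lower for *Podn*, while *Bgn*, *Fmod*, *Prelp* and *Aspn* did not pass the test. In the late AVFs *Dcn*, *Lum*, *Prelp* and *Podn* were higher than in the early ones, and *Bgn* and *Prelp* passed the test as higher than in contralateral veins. The family thus held a different mix of members after the anastomosis: per kb of annotated exons, *Bgn* was at most 0.254 times *Dcn* in every contralateral vein and at least 0.540 times *Dcn* in every AVF.

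Several of the genes lie in small groups on the chromosomes (GRCm38, GENCODE vM21). *Aspn* (chr13:49544443-49567565), *Omd* (chr13:49582462-49592822) and *Ogn* (chr13:49608046-49624501) follow each other on the plus strand with gaps of 14.9 and 15.2 kb, and *Ecm2*, another leucine-rich repeat gene, ends 11.7 kb before *Aspn*. *Dcn* (chr10:97479609-97518143) and *Lum* (chr10:97565128-97572703) are 47.0 kb apart, both on the plus strand. *Prelp* (chr1:133910304-133921414, minus strand) and *Fmod* (chr1:134037254-134048277, plus strand) are 116 kb apart. *Bgn* (chrX:73483602-73495933, plus strand) and *Podn* (chr4:108014791-108096445, minus strand) have no other member beside them. Exons of *Prelp* overlap those of *Gm15851* on the opposite strand by 350 bp and exons of *Aspn* overlap those of *Cenpp* by 7 bp. Whether the authors counted by strand is not given in the sources used here, so a part of the *Prelp* count could come from *Gm15851*.

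Promoter sequence from RefSeq (GRCm38.p6) matched 7 of the 9 genes. The stretch from 130 to 31 bases before the start is shown for the chromosome 13 neighbours. Of these, *Omd* and *Ogn* fell in early AVFs while *Aspn* beside them did not pass the test. It is also shown for *Bgn* and *Prelp*, the members that passed the test as higher in late AVFs than in contralateral veins. All are read 5′ to 3′ on the strand of the gene, and capitals mark a match to GGAATG, the letters that TEAD factors are known to bind.
Aspn, chr13:49544313-49544412, plus strand: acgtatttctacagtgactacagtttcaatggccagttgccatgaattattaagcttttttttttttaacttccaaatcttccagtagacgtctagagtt
Omd, chr13:49582332-49582431, plus strand: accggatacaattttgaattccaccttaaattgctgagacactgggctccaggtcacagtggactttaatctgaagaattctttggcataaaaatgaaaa
Ogn, chr13:49607885-49607984, plus strand: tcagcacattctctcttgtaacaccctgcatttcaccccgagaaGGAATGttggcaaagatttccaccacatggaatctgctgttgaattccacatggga
Bgn, chrX:73483471-73483570, plus strand: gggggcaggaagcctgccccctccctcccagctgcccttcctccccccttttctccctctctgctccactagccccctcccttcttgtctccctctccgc
Prelp, chr1:133921432-133921531, minus strand: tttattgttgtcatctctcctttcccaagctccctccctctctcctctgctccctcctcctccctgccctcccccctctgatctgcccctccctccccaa
The G and C content was 34% for *Aspn*, 38% for *Omd* and 46% for *Ogn*, and 68% for *Bgn* and 60% for *Prelp*. Of the matched genes not shown, *Podn*, which fell in early AVFs, had windows of 78% and 67%, and *Fmod* had 46%. Motifs were searched on both strands. The TATA box, read as TATAAA, was in 4.2% of 32851 RefSeq windows of the same length, and the CCAAT box in 18.9% of them. The GC box, read as GGGCGG, was in 21.8% of the windows, and the AP-1 site, read as TGANTCA, in 3.03%. The TEAD letters shown in capitals were in 5.1% of all windows. Of the windows shown, that of *Ogn* held the TEAD letters and the other 4 held none of these motifs. Bases nearer to the start than 31 were not searched, so a TATA box or other motif there would have been missed.

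Decorin binds collagen fibrils and TGF-β, and per length *Dcn* was the most abundant of the 9 genes in contralateral veins. It ran from 7457 to 16259.7 CPM (counts scaled to 1000000 per library by the trimmed mean of M-values), with a median of 11439 CPM over the 7 contralateral veins. In the 8 early AVFs it ran from 404 to 3604 CPM with a median of 1433 CPM. The 5 mid AVFs had 4099, 3346, 4222, 4138 and 4559.5 CPM, and the 5 late AVFs 5561, 6235, 5008, 5034 and 3723 CPM. Every AVF was below every contralateral vein, and the late AVFs were all above the early ones. On the log2 scale the early AVFs differed from contralateral veins by -2.73 (SE 0.33, adjusted *p* = 1.03e-06, edgeR quasi-likelihood test with Benjamini-Hochberg adjustment, as for all bulk tests here). A gene was called changed at an adjusted *p* under 0.01 with at least a 2-fold difference (1 on the log2 scale). By this rule *Dcn* was not called in mid AVFs (-1.46, SE 0.38, adjusted *p* = 0.0109) or in late ones (-1.13, SE 0.37, adjusted *p* = 0.0502), although the groups did not overlap. The mid result lay at the threshold: *Dcn* was called lower in 16 of 25 fits that left out 1 library (-1.60 to -1.42, adjusted *p* of 0.00178 to 0.00978). Late AVFs were higher than early ones by 1.60 (SE 0.35, adjusted *p* = 0.00593), a call that was lost without early 3 or 5 or any late library (1.45 to 1.61, adjusted *p* of 0.0121 to 0.0219).

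Biglycan is the closest relative of decorin and is known as a danger signal that engages Toll-like receptors when released from the matrix. *Bgn* ran from 859 to 2591 CPM (median 1579.9) in contralateral veins and from 877 to 2894 CPM (median 1751) in early AVFs, so these groups overlapped throughout. The mid AVFs had 3934, 2797, 3687, 3717 and 3516 CPM and the late AVFs 3135, 4174, 3625, 3680.1 and 3872 CPM. All mid and all late AVFs were above all contralateral veins. Early AVFs did not pass the test against contralateral veins (0.11, SE 0.26, adjusted *p* = 0.82), whereas mid AVFs (1.13, SE 0.29, adjusted *p* = 0.00959) and late AVFs (1.198, SE 0.29, adjusted *p* = 0.007) were higher. The mid call lay at the threshold: it was lost without any 1 of 16 libraries, namely contralateral 28, 31, 34, 35 or 633, early 4, and each of the mid and late libraries, with log2 fold changes of 0.96 to 1.16 and adjusted *p* of 0.0105 to 0.0266. The late call was lost without contralateral 28, 31, 34, 35 or 633 or any late library (1.03 to 1.21, adjusted *p* of 0.01 to 0.0205).

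Asporin, the third member of class I, carries a run of aspartate residues and is known to bind TGF-β and collagen. *Aspn* had 367 to 1032 CPM in contralateral veins and the widest spread of its levels in early AVFs, from 18.4 to 1151 CPM. Early libraries 5, 6 and 7 had 71.8, 25.6 and 18.4 CPM, and the other 5 early AVFs had 392 to 1151 CPM. Mid AVFs ran from 786 to 1220.5 CPM and late AVFs from 544 to 885 CPM. None of its 6 comparisons passed the test, and the early log2 fold change was -0.68 (SE 0.54, adjusted *p* = 0.402).

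Lumican, a keratan sulfate proteoglycan of class II that spaces collagen fibrils, followed *Dcn* in early AVFs and then returned to the contralateral level. *Lum* ran from 1648 to 3024 CPM (median 2264) in contralateral veins and from 155 to 1413 CPM (median 641) in early AVFs. It had 2253, 1740.0, 2240.3, 2038 and 2339 CPM in mid AVFs, and 2699, 3289, 2310.35, 2606 and 2403 CPM in late AVFs. All early AVFs were below all other vessels. The early difference from contralateral veins was -1.83 (SE 0.33, adjusted *p* = 0.000202), and late AVFs were above early ones by 2.03 (SE 0.35, adjusted *p* = 0.00199). Mid AVFs did not pass the test against contralateral veins (-0.12, SE 0.37, adjusted *p* = 0.885) nor did late AVFs (0.20, SE 0.37, adjusted *p* = 0.791).

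Fibromodulin, which shares a collagen site with lumican, and PRELP, an arginine- and proline-rich relative that binds heparan sulfate, were low in contralateral veins and highest in late AVFs. *Prelp* ran from 23.2 to 326 CPM (median 154) in contralateral veins and from 40.1 to 281 CPM (median 95.6) in early AVFs. It had 457, 325, 520.2, 473 and 332 CPM in mid AVFs and 523, 889.9, 699.5, 709 and 663 CPM in late AVFs. Every late AVF was above every other vessel, though narrowly, since the highest mid AVF had 520.2 CPM and the lowest late AVF 523 CPM. *Prelp* was higher in late AVFs than in contralateral veins (2.04, SE 0.48, adjusted *p* = 0.00593, 4.11-fold) and than in early AVFs (2.64, SE 0.47, adjusted *p* = 0.00215). The call against contralateral veins was lost without contralateral 31 or 35 or late 17, 19, 23 or 24 (1.85 to 2.04, adjusted *p* of 0.0106 to 0.0177). *Fmod* ran from 0.44 to 199 CPM in contralateral veins and from 0 to 217 CPM in early AVFs, and its 5 late values of 229.6, 572, 512, 367 and 700.2 CPM were above both. With this spread its late log2 fold change of 2.63 (SE 1.198) against contralateral veins did not pass the test (adjusted *p* = 0.171), and neither did its difference of 3.45 (SE 1.17) from early AVFs (adjusted *p* = 0.0828).

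Osteoadherin, encoded by *Omd* and best known from bone and dentin, was scarce. It had 41.3 to 86.9 CPM in 5 contralateral veins but 0.305 and 4.91 CPM in contralateral 28 and 31, and 0.0730 to 12.5 CPM in early AVFs. The early difference was -3.76 (SE 0.89, adjusted *p* = 0.00279), with overlapping groups because of contralateral 28 and 31. Mid AVFs had 8.20 to 28.4 CPM and late AVFs 14.4 to 33.2 CPM. Against early AVFs the late difference of 2.49 (SE 0.89) did not pass the test (adjusted *p* = 0.107), although all late values were above all early ones.

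Osteoglycin, or mimecan, is the class III member, and was first isolated from bone. *Ogn* ran from 645 to 1991 CPM (median 1001) in contralateral veins and from 22.8 to 613 CPM (median 304) in early AVFs. The mid AVFs had 523, 551, 727, 534 and 649.7 CPM and the late AVFs 629, 491, 565, 472 and 517 CPM, so that all late AVFs were below all contralateral veins. The early difference was -1.97 (SE 0.44, adjusted *p* = 0.00172). Neither the mid (-0.92, SE 0.50, adjusted *p* = 0.26) nor the late difference (-1.08, SE 0.50, adjusted *p* = 0.184) passed the test.

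Podocan, first described in kidney podocytes and known to restrain smooth muscle growth, had the largest fold change of the 9 genes in early AVFs. *Podn* ran from 92.4 to 480.04 CPM (median 247) in contralateral veins and from 0.195 to 22.2 CPM (median 8.58) in early AVFs. The mid AVFs had 63.7, 33.9, 42.7, 53.6 and 27.3 CPM and the late AVFs 77.4, 129, 72.9, 52.5 and 91.9 CPM. Early, contralateral and mid vessels did not overlap, and the late values reached into the lower end of the contralateral range. The early difference was -4.62 (SE 0.64, adjusted *p* = 6.07e-06). Late AVFs were above early ones by 3.16 (SE 0.63, adjusted *p* = 0.00404), a call that was lost without late 16, 17, 19 or 24 (2.96 to 3.21, adjusted *p* of 0.0116 to 0.0177). Mid AVFs did not pass the test against contralateral veins (-2.39, SE 0.70, adjusted *p* = 0.0237) nor did late AVFs (-1.46, SE 0.67, adjusted *p* = 0.173).

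**Figure D1:**
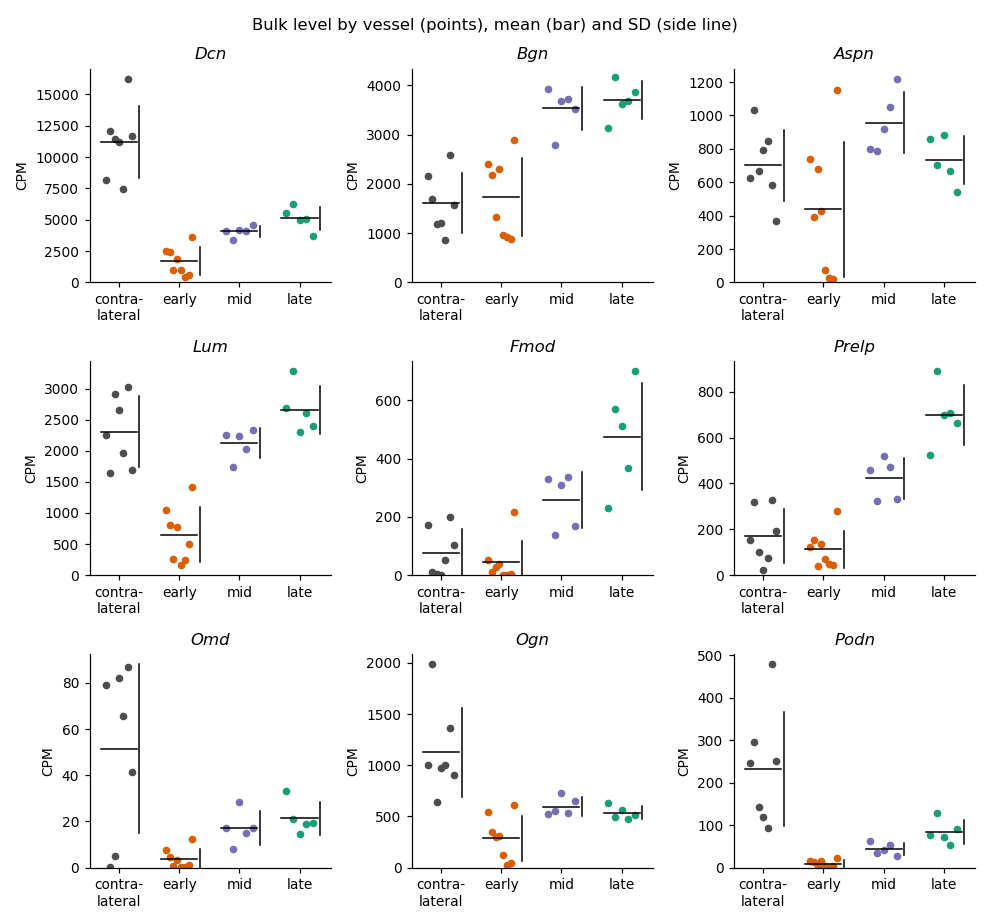
Level of each of the 9 genes in CPM on the vertical axis, 1 panel per gene, with a point for each of the 7 contralateral, 8 early, 5 mid and 5 late vessels, a bar at the group mean and a side line for the SD that is cut off at 0. In the panels of *Dcn*, *Lum*, *Ogn* and *Podn* all early points lie below all contralateral points, and in the panels of *Bgn*, *Fmod* and *Prelp* all late points lie above all contralateral ones.

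Counted over the family, 5 of the 9 genes were lower in early AVFs against the contralateral group, where 6.86% of all tested genes were called lower, and 4 of the 9 had groups that did not overlap in that direction, against 2.45% of all genes. The median log2 fold change was -1.83 over the 9 genes and -0.06 over all tested genes. No member was called higher there (5.88% of all genes; 0 at an unadjusted *p* under 0.05, and 0 by DESeq2 and by the likelihood ratio test). In mid AVFs 1 gene was called higher against contralateral veins (2.9% of all genes), and none lower (2.95% of all genes) by edgeR's quasi-likelihood test, against 2 at an unadjusted *p* under 0.05, 2 by DESeq2 and 2 by the likelihood ratio test. The mid values did not overlap for 1 higher gene (8.02% of all genes) and 2 lower ones (4.25%). In late AVFs 2 were called higher (2.6% of all genes) and none lower (2.48% of all genes) by the same test, against 3 at an unadjusted *p* under 0.05, 1 by DESeq2 and 0 by the likelihood ratio test. The late values did not overlap for 3 higher genes (6.91% of all genes) and 2 lower ones (3.78%). Late AVFs had 4 genes above early AVFs (0.781% of all genes) and 7 with groups that did not overlap (8.92% of all genes). None was called between mid and early AVFs (0.00789% of all genes), although 8 were higher in mid AVFs at an unadjusted *p* under 0.05, and DESeq2 called 3 and the likelihood ratio test 2. Between these groups 3 genes did not overlap (4.66% of all genes). Between late and mid AVFs none was called (0% of all genes) by any of the 3 tests, and none had an unadjusted *p* under 0.05, while 1 did not overlap (1.04% of all genes). The contralateral veins are shared by 3 of these comparisons and the early AVFs by another 3, so their fold changes are not independent of each other. In whole vessels, fewer cells of a type and less RNA of a gene per cell cannot be told apart.

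**Figure D2:**
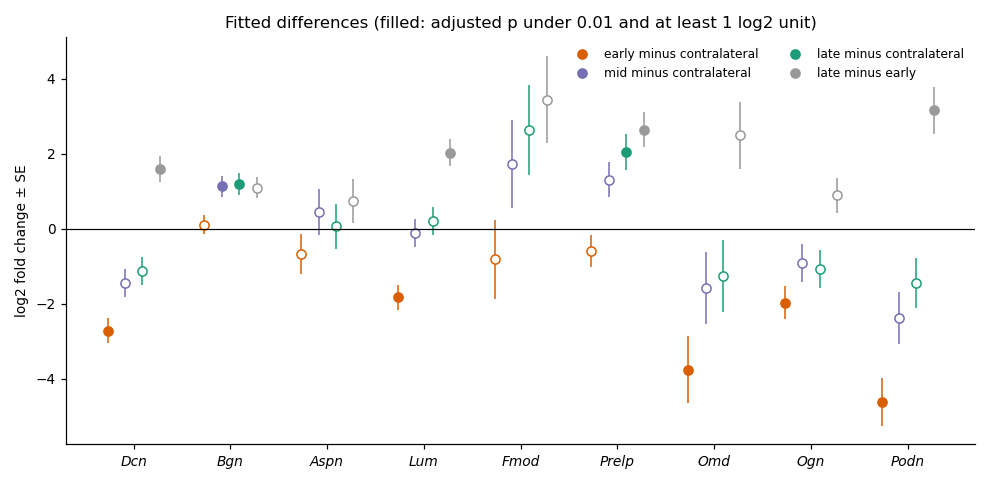
Fitted log2 fold change with its SE on the vertical axis for each gene, by comparison (colours), filled where the gene was called at an adjusted *p* under 0.01 with at least a 2-fold difference. The early differences of *Dcn*, *Lum*, *Omd*, *Ogn* and *Podn* are filled and lie between -1.83 and -4.62, and the late minus early differences of *Dcn*, *Lum*, *Prelp* and *Podn* are filled and lie between 1.60 and 3.16.

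With the 8 libraries whose counts go against the sex label left out, *Podn* (-4.79, adjusted *p* = 0.000603), *Dcn* (-2.91, adjusted *p* = 6.69e-05) and *Lum* (-1.93, adjusted *p* = 0.000607) were still called lower in early AVFs. *Omd* (-4.14, adjusted *p* = 0.0186) and *Ogn* (-2.10, adjusted *p* = 0.0157) kept their direction and lost the call. No call remained in the mid and late comparisons, where *Bgn* had 1.14 (adjusted *p* = 0.104) in mid AVFs, and where the 1 late library left was assumed to vary like the other groups. Without early 5 and 6, the deepest libraries, the same 5 genes were called lower in early AVFs, *Dcn* was then called lower in late AVFs than in contralateral veins (-1.17, adjusted *p* = 0.00731), and the late minus early difference of *Dcn* lost its call (1.24, adjusted *p* = 0.0156). Early 5, 6 and 7, with the lowest *Aspn*, *Ogn* and *Dcn* of the group, also had the lowest summed fibroblast markers (9968, 4870.3 and 2533 CPM, against 18992.5 to 36327 CPM in the other 5), and were the 3 early libraries with more *Xist* than *Ddx3y* counts. Since the sex labels disagree with these counts, the fits with sex as a term, in which the interaction of sex and group had an adjusted *p* of 1 for all 9 genes, say nothing about sex.

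Because the members differ in length, their levels were compared as CPM per kb of annotated exons. The 9 genes summed to 4009 ± 792 CPM per kb in contralateral veins (SD, n = 7), 1185 ± 768 in early AVFs (n = 8), 2994 ± 323 in mid AVFs (n = 5) and 3454 ± 350.2 in late AVFs (n = 5). *Dcn* made up 47.4% ± 5.26 of this sum in contralateral veins and 24.3%, 23.3% and 25.2% on average in early, mid and late AVFs. *Bgn* made up 6.53% ± 1.95 in contralateral veins and 27.5% ± 7.68 in early, 19.3% ± 1.24 in mid and 17.6% ± 1.96 in late vessels. The ratio of *Bgn* to *Dcn* per kb ran from 0.0996 to 0.254 in contralateral veins, from 0.769 to 2.18 in early, 0.738 to 0.919 in mid and 0.540 to 0.995 in late AVFs, so no AVF overlapped a contralateral vein. The median ratio was 0.130 in contralateral veins and 1.07 in early AVFs. *Lum* made up 23.8% in contralateral veins and 23.1% in early AVFs, and 29.0% and 31.4% in mid and late AVFs. *Prelp* had 1.12% in contralateral veins and 5.57% in late AVFs, and *Fmod* 0.577% and 4.21%. *Ogn* had 11.0% in contralateral veins and 6.09% in late AVFs, and *Podn* 1.304% and 0.57%. These shares are descriptions and were not tested. They depend on the length used, the union of all annotated exons, which was 5.84 kb for *Dcn* and 2.45 kb for *Lum*. Without scaling by length, *Dcn* was above *Lum* in late AVFs, with means of 5112 and 2661 CPM.

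**Figure D3:**
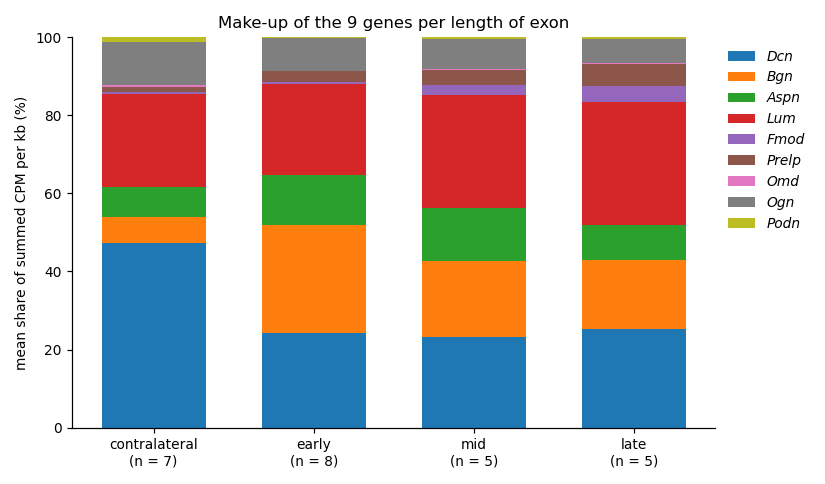
Mean share of each gene, in percent, in the summed CPM per kb of exon of the 9 genes (vertical axis, starting at 0) for the 4 bulk groups. *Dcn* takes 47.4% in contralateral veins and 23.3% to 25.2% in the AVF groups, and *Bgn* takes 6.53% in contralateral veins and 17.6% to 27.5% in the AVF groups.

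Genes that make the sugar chains of these proteins were measured as well. Against contralateral veins, 5.88% of all tested genes were called higher and 6.86% lower in early AVFs. In mid and late AVFs 2.9% and 2.6% were called higher. Of 21 tested genes of chondroitin and dermatan sulfate synthesis, 2 were called in early AVFs, both higher: *Xylt1*, which starts the chain on the core protein, at 16.1 CPM against 1.43 (3.49, SE 0.81, adjusted *p* = 0.00248), and *Chst3*, a chondroitin sulfotransferase, at 2.93 CPM against 0.0221 with 5 of 7 contralateral veins at 0. Both were also higher in mid AVFs, and *Chst3* in late AVFs, at 10.7 CPM. Of 6 tested genes of keratan sulfate synthesis and tyrosine sulfation, *Tpst1*, a tyrosylprotein sulfotransferase, was lower in early AVFs (-1.15, SE 0.32, adjusted *p* = 0.00952) and the rest were not called. The median log2 fold change of the chondroitin and dermatan sulfate list in early AVFs was 0.44.

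Of 9 tested proteases known to cut these proteins, 1 was called higher (5.88% of all genes) and 2 lower (6.86%) in early AVFs. *Mmp13*, a collagenase, was higher (4.66, SE 1.12, adjusted *p* = 0.00304) from 0.178 to 4.65 CPM, while *Mmp3*, stromelysin, was lower (-2.29, SE 0.34, adjusted *p* = 1.39e-05), as was *Adamts1* (-1.25, SE 0.35, adjusted *p* = 0.00994). *Mmp3* was the only one of them called between late and early AVFs (0.781% of all genes were called higher late), and was higher late (1.504, SE 0.35, adjusted *p* = 0.0096). *Mmp14*, a membrane-bound collagenase, was higher in mid AVFs (2.14) and late AVFs (2.06) than in contralateral veins. Of the 11 collagens of the fibril and its surface 5 were called in mid AVFs, all higher (2.9% of all genes). They were led by *Col12a1* (3.58, SE 0.86, adjusted *p* = 0.00604), *Col5a3* (3.11, SE 0.78, adjusted *p* = 0.00805) and *Col5a1* (2.05, SE 0.47, adjusted *p* = 0.00441). The collagen list had a median of 0.15 in early AVFs, against -1.83 for the 9 proteoglycan genes. Of 19 tested receptors and growth factors that the proteoglycans bind, 4 were called higher in early AVFs (5.88% of all genes). Among these 4 were *Tgfb1* (4.24, SE 0.82, adjusted *p* = 0.000402, from 0.335 to 6.38 CPM), the collagen receptor subunit *Itga2* (3.58, adjusted *p* = 0.00563) and *Cd14* (3.15, adjusted *p* = 0.000871), a partner of Toll-like receptors. The other 2 called genes were lower (6.86% of all genes), and *Bmp4* (-3.20, SE 0.43, adjusted *p* = 3.72e-06) stayed called lower in mid and late AVFs.

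Among other genes with small leucine-rich repeats, *Ecm2*, the neighbour of *Aspn*, was the 1 called of 3 that were tested. It was lower in early AVFs, where 6.86% of all genes were called lower. It ran from 116 to 544 CPM in contralateral veins and from 2.21 to 55.0 CPM in early AVFs, a difference of -3.11 (SE 0.46, adjusted *p* = 1.6e-05) with no overlap. *Epyc*, epiphycan, had -2.34 (SE 0.82, adjusted *p* = 0.0378) and *Tsku*, tsukushi, 1.43 (SE 0.75, adjusted *p* = 0.178), and neither was called.

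To describe which genes had the most similar course, each gene was taken as log2 CPM less its own mean over the 25 libraries, and genes were ranked by the root mean square difference to a member. The nearest to *Dcn* were *Serping1* (0.36), *Jcad* (0.39) and *C1ra* (0.40), and the nearest to *Bgn* were *Ppic* (0.27), *Sparc* (0.34) and *Wwtr1* (0.40). *Lum* was nearest to *Smoc2* (0.41), *Ogn* to *C1s1* (0.55) and *Aspn* to its neighbour *Ogn* (0.72). *Podn* was nearest to *Chrdl1* (0.59), *Prelp* to *Scara3* (0.65), *Omd* to *Ppl* (0.87) and *Fmod* to *C1qtnf3* (1.79). The value for *Fmod* was the largest of these, and the gene itself had an SD of 3.14 on this scale, against 0.76 for *Bgn*. The libraries share groups, so likeness here includes the differences between groups.

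Summed markers of several cell types also differed between contralateral veins and AVFs. Beside the calls below, 6.86%, 2.95% and 2.48% of all tested genes were called lower in early, mid and late AVFs. In early AVFs 5.88% were called higher. The summed level of 8 smooth muscle markers ran from 13956 to 28680.3 CPM in contralateral veins and from 1492 to 4694 CPM over all AVFs, and 7 of the 8 were called lower in each AVF group. The 8 endothelial markers ran from 2267 to 4039 CPM in contralateral veins and from 355 to 903 CPM in AVFs, and 6 were called lower in early AVFs. The 9 monocyte and macrophage markers ran from 1909 to 7709 CPM in contralateral veins and from 10776 to 31183 CPM in early AVFs, with 7 called higher. The 8 fibroblast markers, which include no member, ran from 6513 to 29366 CPM in contralateral veins and from 2533 to 36327 CPM in early AVFs, with 2 called lower, and from 27703 to 65852 CPM in mid and late AVFs. Markers of skeletal muscle reached 5300.3 CPM in an early AVF and 10437 CPM in a late one, against at most 41.3 CPM in contralateral veins. The summed cartilage and tendon markers overlapped between groups. They ran from 0.122 to 139 CPM in contralateral veins, 27.2 to 173 CPM in early AVFs and 50.4 to 205 CPM in late AVFs. Of these 8 genes, 3 were at 0 in every contralateral vein. The part of these cells in the differences of the 9 genes was not tested in the bulk data.

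The single-cell libraries show which cells held the transcripts. Of 26438 barcodes, 16893 passed the filters: 6319 from contralateral veins, 4753 from early and 5821 from late AVFs, with a median of 2751, 8951 and 15425 unique transcript counts (UMIs). Clusters were formed without the 9 genes and without the marker genes and were named from markers. With 1 library per condition there is no test, and the intervals below cover counting error only. Fibroblast-named clusters held 1873, 419 and 1934 cells, and they held 94.9% of all UMIs of the 9 genes in the contralateral library (exact binomial 95% interval 94.85 to 95.01), 76.7% in the early library (76.5 to 76.8) and 86.9% in the late library (86.8 to 86.9). Smooth muscle clusters held 16.2% in the early and 10.1% in the late library. The contralateral fibroblasts were mostly in 1 cluster, led by *Sfrp2* and *Inmt* (1736 of 1873 cells), and the AVF fibroblasts mostly in another, led by *Ptx3*, *Hp* and *Has1* (416 of 419 early and 1897 of 1934 late cells). The libraries shared 14 to 19 barcodes in each pair.

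T cells and platelets, which should lack these genes, were used to read the level that free RNA can give. In contralateral, early and late T cells *Dcn* had 436, 85.7 and 612 UMI CPM (UMIs scaled to 1000000 over the cells of a type in a library) and *Bgn* 52.9, 149 and 192. Platelets (470, 133 and 69 cells, with median depths of 706, 688 and 636 UMIs) had 1269, 345 and 1504 UMI CPM of *Dcn* and 172, 483 and 964 of *Bgn*, and stood at 1.02 to 4.53 times the T cell level in the contralateral library and at up to 6.44 times that level (*Ogn*) in the early one. Levels within this range are read as background. In contralateral fibroblasts the 8 members other than *Fmod* were 28.0 to 38.9 times their T cell level. At least 1 *Dcn* UMI was seen in 98.3%, 98.1% and 99.9% of contralateral, early and late fibroblasts, and in 66.3%, 45.3% and 84.0% of T cells, with median depths of 4347, 31702 and 25101 UMIs in fibroblasts and 3502, 5590.0 and 6452 in T cells. After thinning each cell to 1000 UMIs, which left out 307, 0 and 1 fibroblasts and 77, 8 and 6 T cells below that depth, the shares for *Dcn* were 99.2%, 90.7% and 99.5% of fibroblasts and 27.9%, 10.5% and 24.9% of T cells.

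Within fibroblasts, *Dcn* had 16958 UMI CPM in the contralateral library (exact Poisson 95% interval 16887 to 17029), 7656 in the early library (7606 to 7706) and 14628 in the late library (14594 to 14661), which is 2.22-fold lower early (2.20 to 2.23). *Podn* had 412, 32.9 and 88.1 UMI CPM, 12.5-fold lower early (11.3 to 13.9). *Omd* had 63.1, 5.86 and 21.0, 10.8-fold lower early (8.41 to 14.0). *Ogn* had 1702, 509 and 711, 3.34-fold lower early (3.25 to 3.44). These 4 genes, lower in the early bulk libraries, were thus also lower within fibroblasts. *Lum* had 1948, 1679 and 1681 UMI CPM, 1.16-fold lower early (1.14 to 1.18). On the log2 scale the early values of *Lum* (-0.21 in fibroblasts, -1.83 in bulk) and *Dcn* (-1.15 and -2.73) were further apart than those of *Podn* (-3.65 and -4.62), *Omd* (-3.43 and -3.76) and *Ogn* (-1.74 and -1.97). Fibroblast-named cells were 29.6%, 8.82% and 33.2% of all cells kept in the 3 libraries, shares that digestion and the filters can also set.

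*Aspn*, *Bgn* and *Fmod* were higher in early than in contralateral fibroblasts. *Aspn* had 267, 1117 and 677 UMI CPM, 4.19-fold higher early (4.03 to 4.35), although the bulk level did not pass the test in either direction. *Bgn* had 1523, 4047 and 2692, 2.66-fold higher early (2.61 to 2.70) and 1.77-fold higher late (1.74 to 1.79). *Fmod* had 25.2, 49.3 and 82.2, 1.95-fold higher early (1.70 to 2.24) and 3.26-fold higher late (2.91 to 3.66). *Prelp* had 215, 121 and 289, 1.79-fold lower early (1.67 to 1.90) and 1.34-fold higher late (1.29 to 1.40). As a share of all UMIs of the 9 genes in fibroblasts, *Dcn* went from 73.4% to 50.3% and back to 70.1%, and *Bgn* from 6.59% to 26.6% and 12.9%.

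**Figure D4:**
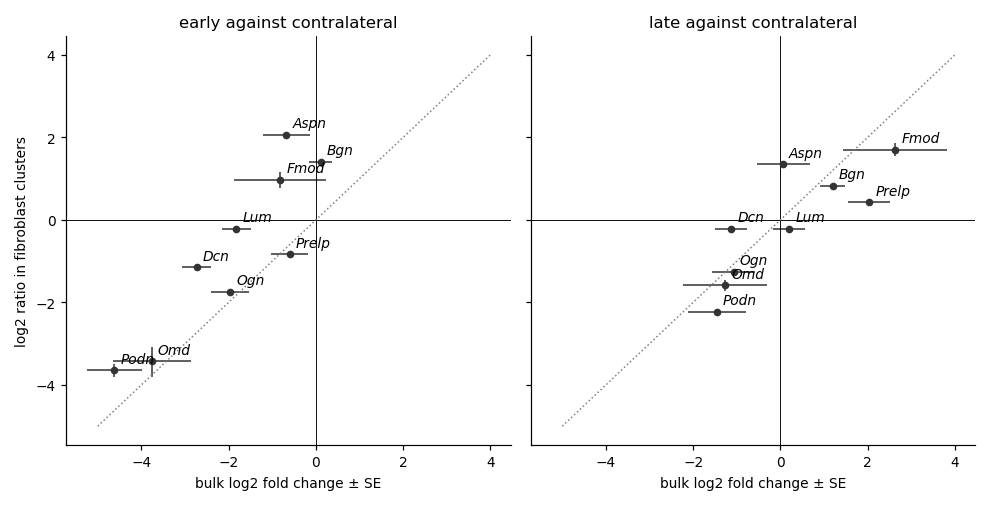
Bulk log2 fold change with its SE (horizontal axis) against the log2 ratio of UMI CPM in fibroblast-named clusters with its counting interval (vertical axis), for early (left) and late (right) against contralateral vessels, with a dotted line of equal values. In the early panel *Omd*, *Ogn* and *Prelp* lie near the line. *Podn* lies above it at -4.62 in bulk and -3.65 in fibroblasts, and *Aspn* lies far above it at -0.68 in bulk and 2.07 in fibroblasts.

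Fibroblasts were also split into smaller clusters, given here by their leading genes. In contralateral veins *Podn* had 438 UMI CPM (421 to 455) in the largest cluster, led by *Igfbp3*, *Inmt* and *Hhip* (578 cells), and 611 (583 to 640.2) in a cluster led by *C7* (257 cells), and *Aspn* had 197 and 338 there. A cluster with *Tnc* and *Cthrc1* among its 10 leading genes, headed by *Saa3*, *Cxcl5* and *Thbs4*, held 273 early and 298 late cells. *Podn* had 19.8 UMI CPM there in the early library and 70.1 in the late one. *Aspn* had 1474 (1447 to 1501) and 2105 (2074 to 2136), which was 86.4% of its fibroblast UMIs in the early and 52.8% in the late library. In a cluster led by *Saa3*, *Hp* and *Cxcl5*, with *Lcn2* and *Il6* among its 10 leading genes (48 early and 458 late cells), *Aspn* had 363 and 315 and *Podn* 53.7 and 107. Adventitial fibroblasts with markers such as *Pi16* formed a contralateral cluster led by *Smpd3* and *Dpp4* (143 cells) and a late one led by the inflammatory genes *Hp*, *Ptx3* and *Saa3* (480 cells). The contralateral cluster had less *Bgn* (350.4 UMI CPM, 321 to 382) than the largest contralateral cluster (1832, 1797 to 1868), and less *Podn* (50.1, 39.4 to 62.7). *Fmod* was not seen in its 143 cells, which allows up to 1.98 UMI CPM by 3 counts, and had 1.64 in the late adventitial cluster against 241 in the late cells of the *Tnc* and *Cthrc1* cluster. Among clusters with at least 20 late cells, *Dcn* was highest in one led by *Saa3*, *Hp* and *Comp* (628 cells), at 18520.0 UMI CPM.

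Smooth muscle clusters were the other main source in the AVF libraries. They held 38 contralateral, 236 early and 510 late cells, so contralateral values rest on few cells. In smooth muscle cells *Bgn* had 1179 UMI CPM in the contralateral library (1068 to 1297), 5337 in the early library (5272 to 5402) and 5698 in the late library (5657 to 5740), above the fibroblasts of both AVF libraries. *Prelp* had 98.9 (68.9 to 138), 422 (404 to 441) and 600 (586 to 613), also above both AVF fibroblast levels. *Lum* had 113 (80.8 to 154), 864 (838 to 890) and 1090 (1072 to 1109). *Omd* had 22.6 (18.6 to 27.2) in the early and 38.7 (35.4 to 42.3) in the late library, also above both AVF fibroblast levels. In the early library smooth muscle cells held 54.0% of all *Prelp* UMIs, 57.5% of *Omd*, 32.3% of *Bgn* and 29.0% of *Ogn*, but 1.83% of *Dcn*. *Dcn* had 359 UMI CPM there, 4.19 times the early T cell level and close to the 345 of early platelets, and contralateral *Lum* was below the 185 of contralateral platelets, so both are within background. In the late library they held 34.1% of *Bgn*, 33.7% of *Prelp* and 24.6% of *Fmod*.

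Other cells held less. In contralateral endothelial cells (807 cells) *Bgn* had 834 UMI CPM and *Prelp* 83.7, which is 15.8 and 13.0 times the T cell level, while *Dcn* at 476 and *Lum* at 72.2 were 1.09 and 1.04 times that level and so no more than free RNA can give. Contralateral Schwann cells (395 cells) had 626 UMI CPM of *Ogn*, 11.1 times the T cell level, beside 739 of *Dcn*, 1.70 times that level and below that of platelets.

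**Figure D5:**
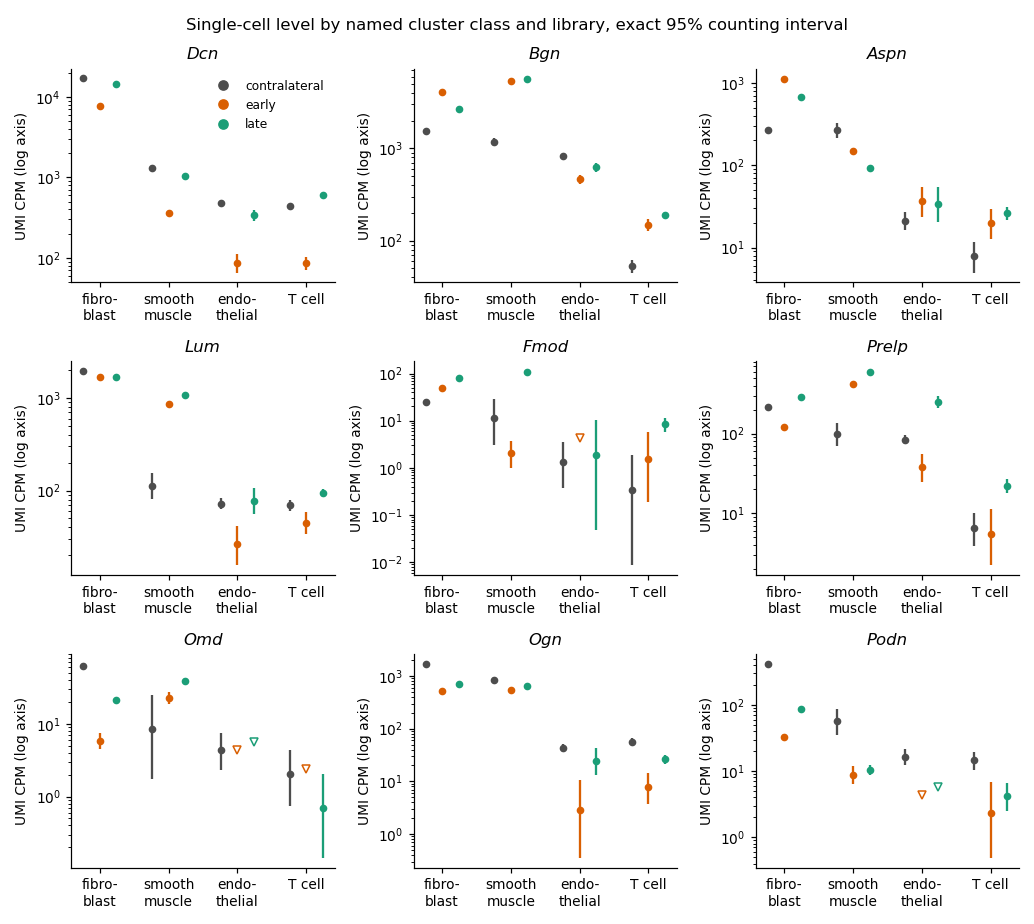
Level of each gene in UMI CPM (vertical log axis) in fibroblast, smooth muscle, endothelial and T cell clusters of the contralateral, early and late libraries, with exact 95% counting intervals, and an open triangle at the limit of 3 counts where no UMI was seen. *Dcn* and *Podn* are highest in fibroblasts in all 3 libraries, while *Bgn*, *Prelp* and *Omd* are highest in smooth muscle cells in both AVF libraries, at 5337 and 5698 UMI CPM for *Bgn*.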

How the data were processed

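Bulk libraries were poly(A)-selected from single vessels by an ultra-low input protocol and sequenced paired-end. The deposited bulk values are whole-number read counts per gene made by the authors, 1 column per vessel. The submitters' processing notes name STAR, Cell Ranger, GRCm38 and mm10 without a role, and which of them, and which annotation and strand setting, made the bulk counts, is not given in the sources used here. Deposited single-cell values are UMI counts per gene and barcode from droplet 3′ libraries of pooled, enzymatically digested vessels. Gene symbols were matched by Ensembl identifier.

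Counts of 25 bulk libraries in 4 groups (7 contralateral, 8 early, 5 mid, 5 late) were scaled by TMM and tested with edgeR 4.0.16 (quasi-likelihood, 1 mean per group, R 4.3.3) over 12673 genes with a DESeq2-normalized mean of at least 100, with Benjamini-Hochberg adjustment. A gene was called at an adjusted *p* under 0.01 with a change of at least 1 on the log2 scale. This follows the study's filter, with DESeq2 1.42.0 as an alternative. At 20254173 to 67457501 counts per library, the spread between vessels set the precision. Levels per length used the union of annotated exons. The fit was tested on simulated data. Single cells were kept at 200 to 6000 genes and a mitochondrial share of up to 10%, and clustered with scanpy 1.11.5 (12 principal components, resolution 0.5) without the 9 genes and the markers. Scrublet marked 0, 1 and 91 barcodes and so did not work in the contralateral and early libraries, and doublets were not removed. Counts were summed by library and named clusters, with exact 95% intervals. The limit for no UMI was set at 3 counts.

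The 9 genes, the gene lists and the comparisons were chosen with earlier results of these data known. All 9 genes were named. From each list, the 3 called genes with the largest absolute change were named, with any tested gene of the small leucine-rich repeat family. The 3 genes nearest to each member were ranked, and the nearest is given. Alternatives were another scaling, DESeq2, the likelihood ratio test, other filters, sex as a term, only the 2 groups compared, an adjusted *p* under 0.05, and each library left out. Leaving out early 5 and 6, or the 8 libraries whose *Xist* and *Ddx3y* counts contradict the sex label, was chosen after the data were seen.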

Additional observations from a re-analysis of the deposited data

Results flagged for a closer look

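In early AVF 10 *Fmod* stood at 217 CPM, far above the next highest early AVF at 51.3 CPM, with a gap of 0.764 of the range of the 8 vessels. *Prelp* stood apart in the same vessel at 281 CPM, with the next highest at 153 CPM and a gap of 0.532 of the range. Among the 36 sets of vessels examined (9 genes in 4 groups) chance marks about 1 in 20 this way. Early 10 is also among the 8 libraries whose *Xist* and *Ddx3y* counts go against the sex label. It had the highest level of each of the 9 genes in the early group, among them *Dcn* (3604 CPM), *Lum* (1413 CPM) and *Podn* (22.2 CPM).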

How the results depend on the processing

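The 5 genes below contralateral veins in early AVFs stayed at 5 with every library left out in turn, and fell to 3 when only the 2 groups compared were fitted and to 3 without the 8 libraries that contradict their sex label. No paired analysis was possible because the groups share no library numbers. In mid AVFs the 1 gene above contralateral veins became 0 with DESeq2 size factors, with sex as a term, with only the 2 groups compared and without the 8 libraries, and 0 to 1 with a library left out. The count below contralateral veins became 1 with DESeq2 size factors and with filterByExpr, 2 with the DESeq2 Wald test, the likelihood ratio test, no filter, only the 2 groups, an adjusted *p* under 0.05 and without early 5 and 6, and 0 to 2 with a library left out. In late AVFs the 2 genes above contralateral veins became 0 with only the 2 groups and without the 8 libraries, and 0 to 2 with a library left out, while 1 gene (*Dcn*) was called lower by the DESeq2 Wald test, with only the 2 groups and without early 5 and 6. Between mid and early AVFs, 3 were called higher by the DESeq2 Wald test, 2 by the likelihood ratio test and 5 at an adjusted *p* under 0.05, and 0 to 3 with a library left out, the 3 without early 10. The 4 genes higher in late than early AVFs became 2 with only the 2 groups, 0 without the 8 libraries, 2 without late 16, 17, 19 or 24, and 2 to 5 over all libraries left out. The causes were not tested, and the fits that leave libraries out also rest on fewer libraries.

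Directions turned in values close to 0. *Aspn* in late AVFs against contralateral veins (0.06) had -0.011 with DESeq2 size factors, -0.011 with the DESeq2 Wald test, -0.0063 with filterByExpr, -0.0067 with no filter and -0.069 to 0.093 with a library left out. *Bgn* in early AVFs against contralateral veins ran from -0.039 (without early 10) to 0.29. *Bgn* in late against mid AVFs ran from -0.0083 (without mid 12) to 0.12, and had -0.25 without the 8 libraries, where *Fmod* had -0.24.

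The share of UMIs of the 9 genes in fibroblast-named clusters was 94.4%, 75.7% and 87.6% (contralateral, early, late) with up to 20% mitochondrial counts, 95.04%, 75.0% and 88.1% with the 9 genes and markers left in the clustering, and 89.6%, 58.5% and 83.9% with each cell thinned to 1000 UMIs. It was 76.2% early and 88.2% late without marked doublets, and 86.7% late at a resolution of 1.0. All 27 fibroblast levels stayed within 1.5 times of the main value under these alternatives (largest ratio 1.29).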
